A study of Homo sapiens with 7 samples.

Results

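The antigen receptor V gene segments are the short exons that encode most of the variable domain of an immunoglobulin or T cell receptor chain. The GENCODE annotation used here (release 44, lifted to GRCh37) lists 224 of them on chromosomes 2, 7, 14 and 22, among 64486 genes in all. They comprised 47 segments of the immunoglobulin heavy chain locus IGH (chromosome 14), 44 of the kappa locus IGK (chromosome 2), 37 of the lambda locus IGL (chromosome 22), 49 of the T cell receptor alpha and delta locus TRA (chromosome 14), 36 of TRB and 9 of TRG (both chromosome 7), and 2 IGKV orphons on chromosome 2 outside IGK. The members were taken from the annotation alone, as genes of the types IG_V_gene and TR_V_gene. CTCF peaks that overlapped a segment or lay within 5 kb of it were counted as near peaks. Any other peak between the first and the last V segment of a locus, extended by 200 kb, was counted as another peak of that locus. The near peaks numbered 164 of the 33094 control peaks and 185 of the 32917 PDS peaks, and the other peaks 153 and 165. Neighbouring segments share peaks and, being copies of one another, much of their sequence. IGHV1-69 and IGHV2-70 overlap IGHV1-69D and IGHV2-70D in this build.

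CTCF occupancy had been measured by ChIP-seq in K562, an established human leukaemia cell line of erythroid and myeloid character. Non-treated (control) cells gave 2 CTCF samples and 1 IgG sample, and cells treated with 10 µM pyridostatin (PDS), a ligand that stabilizes folded G-quadruplexes (G4s), for 24 h gave 2 CTCF and 2 IgG samples. Each condition has 1 peak list, called on both CTCF replicates against IgG, with a fold over IgG and a p-value for each peak. The lists used here hold no value per replicate and no read depth, and signal per replicate was not analysed here, so no spread between replicates and no test between conditions can be given. A fold is relative to the IgG of its own condition, and peaks were therefore placed by their percentile within their own list, 100 being the highest fold. Intervals given with shares are 95% Wilson intervals and cover counting error only.

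In developing lymphocytes the RAG1-RAG2 recombinase cuts at recombination signal sequences, each made of a heptamer, a spacer and a nonamer, and joins a V segment to a D or J segment. The signal of a V segment directly follows its 3′ end. CTCF and cohesin form chromatin loops across the antigen receptor loci and bring distant V segments near the J segments, and the strand on which a CTCF motif lies determines which way a loop can extend. K562 cells are not lymphocytes. Gene type and strand were checked against sequence: 211 of the 224 segments had the first letters of the heptamer, CAC, close to the annotated 3′ end. It began at the first base after the end in 133, and in some others within the last bases of the segment. Only the first such CAC was read, and 127 segments had the full CACAGTG there. A heptamer that began at a later CAC was not counted.

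The sequences that followed the 3′ ends of 6 IGHV segments are shown because the recombination signal and the best CTCF match lay side by side, under or next to a peak. Each starts with the heptamer, in capitals, and the second run of capitals is the core of the best match to a CTCF weight matrix. All are from GRCh37 and read 5′ to 3′ along the segment.
IGHV3-49 (chr14:107012826-107012935, minus strand): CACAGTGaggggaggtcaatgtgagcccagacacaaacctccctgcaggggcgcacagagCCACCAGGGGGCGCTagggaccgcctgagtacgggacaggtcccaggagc
IGHV3-72 (chr14:107198820-107198929, minus strand): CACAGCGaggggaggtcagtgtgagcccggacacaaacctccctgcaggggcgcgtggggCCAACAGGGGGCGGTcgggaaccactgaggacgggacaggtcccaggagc
IGHV3-20 (chr14:106667469-106667578, minus strand): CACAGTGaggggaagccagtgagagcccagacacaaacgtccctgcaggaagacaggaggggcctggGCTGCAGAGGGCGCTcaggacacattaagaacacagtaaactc
IGHV4-34 (chr14:106829482-106829591, minus strand): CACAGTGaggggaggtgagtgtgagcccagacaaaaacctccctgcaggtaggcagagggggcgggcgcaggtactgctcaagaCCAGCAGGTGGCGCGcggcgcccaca
IGHV3-23 (chr14:106725089-106725198, minus strand): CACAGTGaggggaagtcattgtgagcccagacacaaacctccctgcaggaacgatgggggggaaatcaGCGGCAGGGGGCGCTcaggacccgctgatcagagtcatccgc
IGHV3-53 (chr14:107048560-107048669, minus strand): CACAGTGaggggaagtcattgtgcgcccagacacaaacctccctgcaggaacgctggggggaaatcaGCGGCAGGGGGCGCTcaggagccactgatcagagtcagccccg

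Across all 6 loci, 90 of the 224 V segments (40.2%, 34 to 46.7) had a control peak within 5 kb and 88 (39.3%, 33.1 to 45.8) a PDS peak. Genome windows of the same length, 10531 bp, held a control peak in 10.4% of cases and a PDS peak in 9.41%. Protein-coding genes, which are longer than V segments, had one within 5 kb in 62.7% and 59.3% of cases. The loci differed widely. IGL was nearly filled, with 35 of 37 segments near a control peak (94.6%, 82.3 to 98.5) and 36 (97.3%) near a PDS peak. IGK was nearly empty, with 2 of 44 segments in each list (4.55%, 1.26 to 15.1). Between these stood TRG with 5 of 9 in each list (55.6%), TRB with 17 and 18 of 36 (47.2% and 50.0%), TRA with 17 and 11 of 49 (34.7% and 22.4%) and IGH with 14 and 16 of 47 (29.8% and 34%). The intervals of these 4 loci overlapped. Below IGL, the order depended on the settings. Counting overlap alone, IGL had 48.6% in the control and 40.5% in the PDS list. IGH then had 2.13% in both lists, against 2.27% and 0 in IGK. With the better 50% of peaks by p-value, TRA had 2.04% in both lists, below IGK with 4.55%, and IGH had 6.38% and 12.8%. Without IGL and the orphons, 55 of 185 segments (29.7%) were near a control peak and 52 (28.1%) near a PDS peak. Neither of the 2 orphons had a peak.

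**Figure D1:**
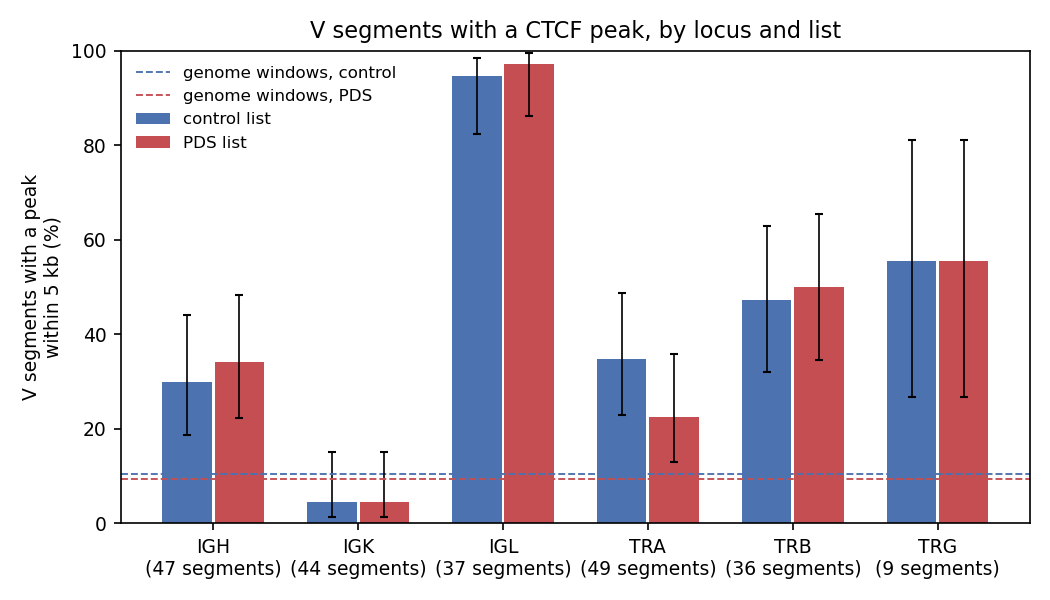
Bars give the percentage of V segments of each locus with a CTCF peak within 5 kb in the control and the PDS list, and error bars are 95% Wilson intervals for counting error. IGL stands at 94.6% and 97.3% and IGK at 4.55% in both lists, with the other 4 loci between 22.4% and 55.6%.

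Of the 224 segments, 81 had a peak in both lists, 9 in the control list only, 7 in the PDS list only and 127 in neither. Of the 97 with a peak, 83.5% thus had it in both lists, 9.28% in the first and 7.22% in the second alone. Protein-coding genes with a peak within 5 kb split into 88.2%, 8.56% and 3.29%, and genome windows with a peak into 76.7%, 16.1% and 7.16%. In TRA, 8 segments were near a peak in the control list only and 2 in the PDS list only, and the other 5 loci together held 1 and 5 such segments. Several of these segments shared a peak: TRDV1 and TRAV24 lay within 5 kb of the same control peak, and TRBV7-3 and TRBV6-4 of the same PDS peak. Because each list was called once, a segment with a peak in 1 list cannot be told apart from a peak close to the calling threshold. Several such peaks ranked low by p-value, as given below for IGH and TRA.

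In IGH, peaks at the V segments were narrow, and a part of them lay directly after the 3′ end. The locus had 15 near control peaks, with a median width of 180 bp and a median fold percentile of 71.9, and 16 near PDS peaks, with 200 bp and 50.6. Their median percentiles by p-value were 32.3 and 42.9, so that the rank of the control peaks was above the middle of the list by fold and below it by p-value. The whole lists had median widths of 360 and 300 bp. Control peaks begin and end on a grid of 60 bp and PDS peaks on one of 50 bp, so the calling settings may have differed, and widths, numbers of peaks and sharing are to be read with that limit. The centre fell within the 200 bp after the 3′ end of the nearest segment for 5 of the 15 control peaks and 7 of the 16 PDS peaks, and for none of the near peaks of TRA, TRB, TRG and IGK in either list. In IGL it did so for 1 of 113 control and 2 of 134 PDS peaks.

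A match to the CTCF weight matrix lay within 200 bp after the 3′ end in 23 of the 47 IGHV segments, and all 23 were on the strand of the segment. The limit for a match was set so that 1% of 200-bp windows 3 kb from peaks passed it. In the other loci matches were few and none had the strand of the segment: IGK had 6 in 44 segments, 85 to 90 bp after the end and without a peak, IGL and TRA had 1 each, and TRB and TRG none. The centres of the 23 IGHV matches fell between 68 and 94 bp after the 3′ end. They split by family: 17 of 22 IGHV3 segments had one at 68 to 77 bp, 5 of 7 IGHV4 segments at 92 to 94 bp and IGHV8-51-1 at 74 bp, while none of the 10 IGHV1 and 4 IGHV2 segments had one. A motif match was therefore more common there than a peak. In those 200 bp, 5 segments had a control peak, 4 of them with a match (IGHV3-20, IGHV4-34, IGHV3-49 and IGHV3-72) and IGHV4-39 without. The PDS list added IGHV3-23 and IGHV3-53, both with a match, but their peaks began 98 and 119 bp after the segment, beyond the match. In the printed sequences, the match of IGHV4-34 is centred 94 bp after the 3′ end, farther from its heptamer than those of the IGHV3 segments, which are centred at 68 bp in IGHV3-49 to 76 bp in IGHV3-23.

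**Figure D2:**
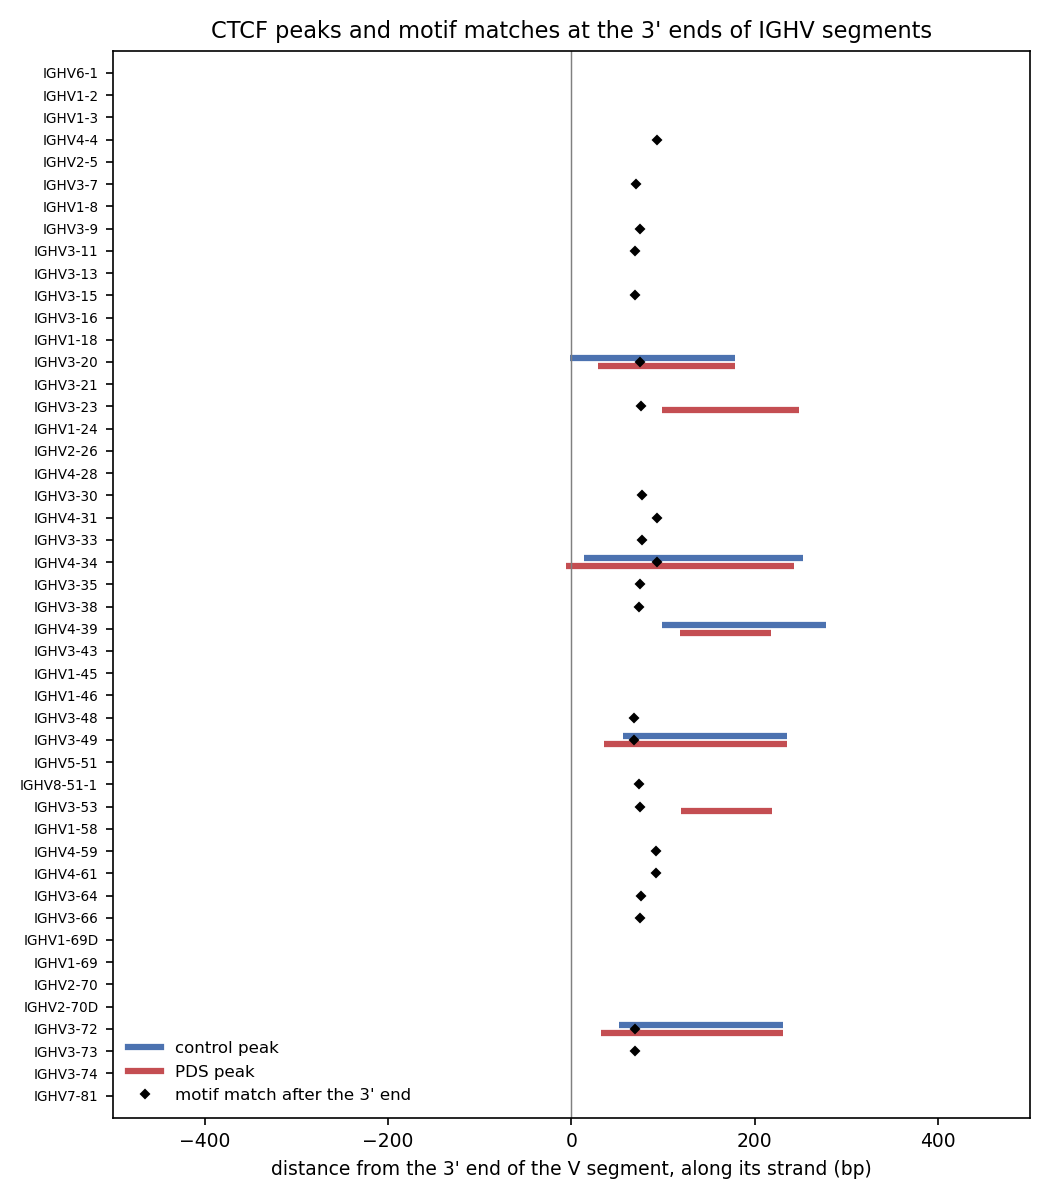
Each row is 1 of the 47 IGHV segments, the horizontal axis is the distance in bp from its 3′ end along its strand, blue and red bars are control and PDS peaks, and diamonds are the centres of weight matrix matches. The 23 matches sit 68 to 94 bp after the end, most of them without a peak.

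IGHV4-34 (chr14:106829594-106830076), a segment known for antibodies against self antigens, had the highest control fold of the IGHV segments, 76.7 (percentile 97.5), in the peak chr14:106829341-106829580. The overlapping PDS peak had a fold of 19.7 (percentile 65.0). By p-value the same pair stood at percentiles 67.7 and 76.8, so the 2 measures ordered the lists differently. IGHV4-39 followed in the control list, with 52.3 (89.8) in a peak some distance beyond its 3′ end, and had 26.7 (85.8) in the PDS list. Its second peak, within the 200 bp after the 3′ end, was weaker, with percentiles of 47.4 and 3.89.

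IGHV6-1 (chr14:106405611-106406108), the V segment nearest to the J segments, had a peak 4792 bp away in both lists, with folds of 45.9 (85.2) and 33.8 (94.3), the latter the highest of IGH in the PDS list. IGHV3-9 had folds of 51.9 (89.5) and 30.6 (91.5). IGHV7-81, the segment farthest from the J segments, had 41.7 (81.0) and 17.8 (56.1). Its second control peak, chr14:107287501-107287680, held 2 words of the CTCF consensus and had no PDS counterpart. These segments at either end of the array were thus both near a peak in both lists.

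The 2 IGHV segments with a peak in the PDS list only ranked in the middle by fold and low by p-value. IGHV3-23 (chr14:106725199-106725733), one of the most used human heavy chain segments, had a PDS fold of 17.6 (54.9) and a p percentile of 10.8. IGHV3-53 had 15.8 (43.9) and a p percentile of 2.83. The nearest control peaks were 8447 and 6329 bp away. Of the 5 overlapping pairs of IGH whose percentiles by fold differed most, 4 were lower under PDS, at IGHV1-24, IGHV3-72, IGHV1-58 and the second peak of IGHV4-39, and 1 was higher, at IGHV8-51-1. IGHV8-51-1 stood at percentile 3.98 in the control list against 84.1 under PDS, IGHV3-72 at 77.4 against 28.6, IGHV1-24 at 71.9 against 25.5 and IGHV1-58 at 50.1 against 3.08. By p-value these pairs ranked higher under PDS, at 44.7 against 60 for IGHV8-51-1, 32.4 against 36.6 for IGHV3-72, 22.4 against 29.4 for IGHV1-24 and 13.3 against 47.9 for IGHV1-58. The second pair of IGHV4-39 stood at 17.2 against 16.1 by p-value. Of the 14 overlapping pairs of IGH, 7 ranked higher under PDS by fold and 11 by p-value.

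The strongest control peak of IGH away from a segment, chr14:106765081-106765500, lay 6964 bp from IGHV2-26 on a tandem repeat. It had a fold of 47.4 (86.3) in control cells and 17 (51.5) under PDS. The control peak held 9 words of the CTCF consensus, all on the strand of the IGHV segments, spaced 19 to 59 bp apart. A stretch with 8 of them, in capitals, is shown because so many complete words in 1 peak stood beside a fold that was not at the top of either list.
Repeat near IGHV2-26 (chr14:106765192-106765491, minus strand): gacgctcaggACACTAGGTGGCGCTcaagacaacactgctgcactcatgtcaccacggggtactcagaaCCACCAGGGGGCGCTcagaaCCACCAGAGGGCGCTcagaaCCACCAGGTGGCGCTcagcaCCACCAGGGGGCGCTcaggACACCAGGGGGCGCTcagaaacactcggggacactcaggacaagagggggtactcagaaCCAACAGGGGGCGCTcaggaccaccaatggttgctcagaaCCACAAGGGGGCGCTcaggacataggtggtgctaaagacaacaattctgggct

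No peak of either list lay on the J side of the IGHV array, where the 200 kb held 27 D, 6 J and 4 C genes. On the far side, chromosome 14 ends after 66.3 kb, and the second control peak of IGHV7-81 was the only peak listed there. All 8 other control peaks and 11 other PDS peaks of IGH lay between V segments. The highest of them in the PDS list, chr14:106501451-106501700 near IGHV2-5, held 3 consensus words, with a fold of 23.3 (77.8), and 27.1 (51.6) in the control list.

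In TRB, the strongest peak was not at a V segment. It lay at chr7:142490881-142491540, before the D segment annotated as TRBD1, with a fold of 107 (99.5) in control cells and 55.0 (99.5) under PDS. It was within 5 kb of TRBD1 and of all 8 TRBJ2 segments, which are the D and J genes that the lifted annotation places in the extended locus. Its consensus word lay on the minus strand. That word is shown with those of 4 TRBV5 segments, which are copies of one family and had a peak with a complete word nearby. Capitals mark the consensus word, and each sequence is read along the strand of the word.
TRBV5-7 (chr7:142115762-142115816, minus strand): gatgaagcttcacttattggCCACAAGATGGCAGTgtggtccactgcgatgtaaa
TRBV5-6 (chr7:142135225-142135279, minus strand): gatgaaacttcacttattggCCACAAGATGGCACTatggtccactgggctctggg
TRBV5-5 (chr7:142153295-142153349, minus strand): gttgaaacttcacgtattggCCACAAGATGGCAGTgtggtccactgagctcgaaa
TRBV5-4 (chr7:142172278-142172332, minus strand): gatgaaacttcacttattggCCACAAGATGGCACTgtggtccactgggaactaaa
Peak before TRBD1 (chr7:142491285-142491339, minus strand): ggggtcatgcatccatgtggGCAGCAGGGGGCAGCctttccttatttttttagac

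The 4 TRBV5 sequences were between 83.6% and 90.9% identical over 55 bases, yet their peaks ranked differently. TRBV5-7 had the highest control fold of the TRBV segments, 42.9 (82.2), and a PDS fold of 15.9 (44.7). TRBV5-4 had the highest PDS fold, 32.6 (93.4), and a control fold of 22 (34.2). TRBV5-6 had fold percentiles of 60.8 and 63.8. The peak over the word of TRBV5-5 was in the control list only, with a fold of 42.5 (81.8). By p-value the 3 overlapping pairs all ranked higher under PDS, at 7.38 against 52 for TRBV5-7, 47.4 against 75.8 for TRBV5-6 and 34.7 against 51.4 for TRBV5-4. The opposite directions of TRBV5-7 and TRBV5-4 were thus seen by fold and not by p-value, and without replicate values the error of these ranks is unknown.

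TRBV6-7 had highest folds of 32.6 (66.3) in control cells and 25.4 (83.1) under PDS. The control peak that overlapped the latter had a fold of 12.9 (12.6), and by p-value this pair ranked the other way, at 69.4 against 52.3. TRBV30, which lies beyond the C genes and nearest to the J segments, had 26.1 (48.7) and 9.19 (11.1), and TRBV2, the farthest, 25.3 (46.0) and 14.2 (33.8). The segments with a peak in 1 list only had weak or short peaks. TRBV20-1 had a control fold of 9.36 (6.79). TRBV7-3 and TRBV6-4 shared a PDS peak of 100 bp with a fold of 17 (51.4). On the J side, the peak chr7:142704961-142705740 had 42.8 (82.1) and an overlapping PDS peak 41.8 (97.9).

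In TRA, which also holds the delta segments, more segments were near a control than near a PDS peak, 17 against 11. This difference depended on the settings. It had the same direction with windows of 2 kb (18.4% against 14.3%) and 10 kb (40.8% against 30.6%). With V pseudogenes added it also did (29.3% against 19.0%). Counting overlap alone, with no 5-kb window, gave 6.12% of segments in control cells and 8.16% under PDS, and keeping the better 50% of peaks by p-value gave 2.04% in both. With that last setting TRB had 11.1% and 38.9%. The near peaks of TRA numbered 13 in the control and 10 in the PDS list, of which 8 overlapped. The 5 control peaks without a PDS counterpart had p percentiles between 0.329 and 26.8, and the 2 PDS peaks without a control counterpart 3.68 and 12. These peaks were thus all in the lower part of their lists by p-value. The near peaks of TRA as a whole also ranked low, with median p percentiles of 13.2 in the control and 17.9 in the PDS list.

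TRDV3 (chr14:22938033-22938690), the delta segment in inverted orientation and the one nearest to the alpha J segments, had the strongest near peak of TRA in both lists, with folds of 47.7 (86.5) and 43.9 (98.4). A second peak beside it held a consensus word and had percentiles of 31.8 and 52.2. Both lay within 5 kb of TRAJ61 and TRAJ59. TRAV13-2 came next in the control list, with 36.6 (73.9) against 17.1 (52.2) in the PDS list. TRAV4 came next in the PDS list, with 23.9 (79.3) against 24.3 (42.4). TRAV1-1, the segment farthest from the J segments, had no peak within 5 kb, the nearest lying 63990 bp away. TRDV1 and TRAV24 shared a control peak with a fold of 30.7 (61.9), the only near control peak with a consensus word on the strand opposite to its nearest segment. The 2 segments with a peak in the PDS list only were TRAV23DV6, with 17.2 (53), and TRAV25, with 13.8 (31.7).

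Control peaks of higher fold lay around the V segments of TRA than at them. One followed TRAC, the constant gene of the alpha chain, at chr14:23025901-23026620, with folds of 57.7 (92.6) and 31.1 (92.1). Its consensus word was on the plus strand. Another, chr14:22855921-22856220, lay in the antisense gene TRD-AS1 between V segments, with 58.0 (92.8) and 21.8 (73.0). The highest was at the start of TOX4 beyond the far end, chr14:21945181-21945420, with 111 (99.5) and 66.9 (99.8). In the control list only, a peak of 120 bp with a fold of 29.1 (57.8) lay within 5 kb of TRDD1 and TRDD2. Consensus words of 2 near peaks and of the peak after TRAC are shown in capitals to compare a V segment word with one beyond the constant gene.
TRAV13-2 (chr14:22382098-22382152, plus strand): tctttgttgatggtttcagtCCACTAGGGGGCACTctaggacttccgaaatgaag
TRDV3 (chr14:22942134-22942188, minus strand): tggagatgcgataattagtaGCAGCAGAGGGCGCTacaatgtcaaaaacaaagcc
Peak after TRAC (chr14:23026224-23026278, plus strand): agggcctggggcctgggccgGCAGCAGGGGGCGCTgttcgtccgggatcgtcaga

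TRG is the smallest locus, with 9 segments over 76.6 kb, and 6 of its near peaks overlapped between the lists. The control list had 6 near peaks and the PDS list 7. TRGV9, which pairs with a delta chain in most circulating gamma delta T cells, had folds of 40.6 (79.7) and 24.9 (81.9) in a peak over its 5′ end. TRGV8 had 2 peaks. The one over its 5′ end had 37.1 (74.7) and 18.1 (57.6). The other, chr7:38374981-38375700, held a consensus word and had 35.6 (72.2) and 29.7 (90.5).
TRGV8 (chr7:38375354-38375408, minus strand): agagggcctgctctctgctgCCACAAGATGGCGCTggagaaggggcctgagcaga
TRGV11, nearest to the J segments, had 13.6 (13.9) and 21.0 (70.3). By p-value that pair stood at 57.9 in control cells against 45.7 under PDS, and the TRGV8 pair with the consensus word at 92.6 against 84, so that both ranked higher under PDS by fold and lower by p-value. TRGV1, the farthest segment, had highest folds of 25.5 (46.8) and 19.3 (63.0). The peak with the highest control fold of the locus, chr7:38380921-38381220, lay between V segments, 7735 bp from TRGV5, with 61.5 (94.0) and 22.4 (75.1), the latter below the PDS folds of TRGV8 and TRGV9.

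In IGK, IGKV4-1 and IGKV6D-41 were the segments with a peak, and the other 42 had none. IGKV4-1 (chr2:89184913-89185669), the segment nearest to the J segments, had a peak 4452 bp away with a fold of 21.3 (32.5) in control cells and 11.6 (20.5) under PDS. IGKV6D-41 (chr2:90108504-90109080) had 19.8 (28.7) and 25.7 (83.8) in a peak that held a consensus word, in capitals. By p-value this pair ranked the other way, at 83.3 in control cells against 56 under PDS.
IGKV6D-41 (chr2:90108300-90108354, plus strand): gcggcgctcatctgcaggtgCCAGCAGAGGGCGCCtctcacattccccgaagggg
IGKV3D-7, the segment farthest from the J segments, was 165138 bp from the nearest control peak. The V array of IGK had 2.75 control and 1.84 PDS peaks per Mb, against 10.7 and 10.6 over all chromosomes.

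The IGKV segments lie in 2 closely similar copies of the array, and the authors removed reads that had no unique placement. Words of 50 bases within 5 kb of a segment were therefore counted by whether they occurred once in the genome. Their median share was 36% around IGKV segments, against 92.8% in IGH, 93.4% in IGL, 98.0% in TRA, 94.7% in TRB and 86.5% in TRG. The share was below 50% for 28 of the 44 IGKV segments, and none of the 28 had a peak. With words of 100 bases the median was 57.7%, and 14 IGKV segments, none with a peak, were below 50%. Of the 16 IGKV segments above 50%, 2 had one: the share was 95.9% for IGKV4-1 and 99.6% for IGKV6D-41. IGKV5-2, IGKV1-6 and IGKV1-5 had shares of 99.5%, 92.1% and 91.5% and no peak. Over all loci, none of the 31 segments below 50% and 97 of the 193 above it had a peak in at least 1 list. Unresolved bases of the assembly took 18.4% of the words of the IGK array and 19.6% of those of TRB. In IGK, lack of binding and lack of uniquely placed reads cannot be told apart where the share is low.

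**Figure D3:**
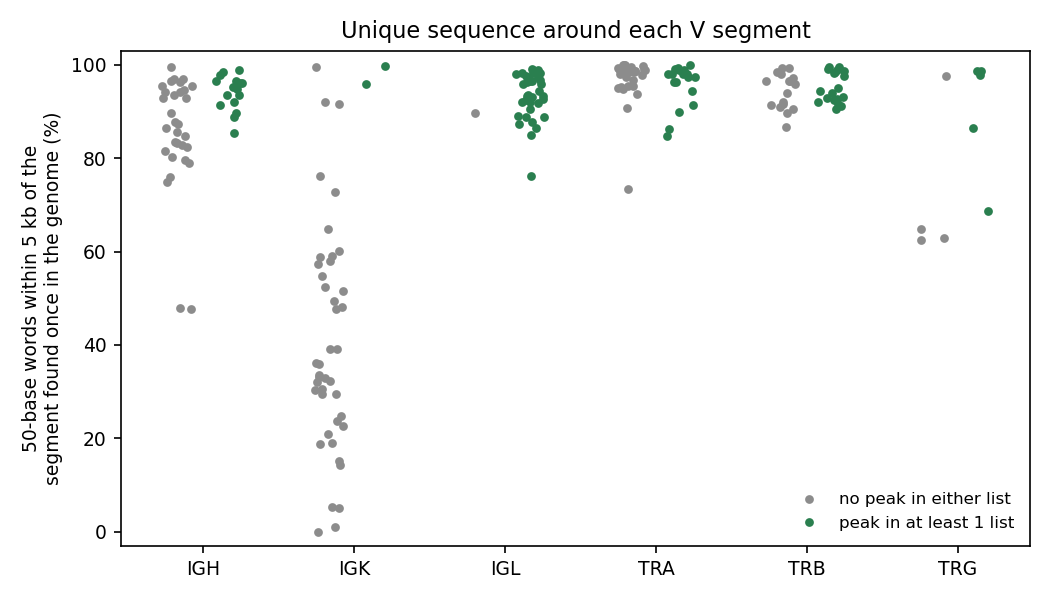
Each point is a V segment, placed by locus and by the percentage of 50-base words within 5 kb that occur once in the genome, green points having a peak in at least 1 list and grey points none. IGK spreads from 0 to 99.6% with its 2 green points at 95.9% and 99.6%, while in TRA and TRB green and grey points cover a similar range. In TRG and IGH the median is higher for green than for grey points.

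IGL differed from the other loci in number and rank of its peaks and in its share of wide peaks. Its 37 segments had 113 near control peaks and 134 near PDS peaks, against 51 in each list for the other 5 loci together. The V array held 200.4 control and 227 PDS peaks per Mb, and 170 and 189 bp of each kb were covered by peaks, against 4.50 and 4.48 bp over all chromosomes. Folds were low, with median percentiles of 10.8 and 11.6, and 86 of the 113 control and 94 of the 134 PDS peaks fell below the 25th percentile of their list by fold. By p-value, 25 of all 113 and 26 of all 134 peaks were above the 90th percentile. Peaks of 1500 bp or wider made up 17 of 113 (15%) and 17 of 134 (12.7%), against 0.861% and 1.58% of the whole lists and 0 of 51 in each list for the other 5 loci. The median widths of IGL, 360 and 350 bp, were near the 360 and 300 bp of the whole lists. They were below those of TRG, 600 and 700 bp. The widest near peaks of IGL were 5160 and 6550 bp long.

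Amid these, a few IGL segments had narrow or strong peaks. IGLV1-51 had the highest control fold, 63.8 (94.8), in a peak of 240 bp with a consensus word on its strand, and a PDS fold of 26.8 (85.9). IGLV3-25 had 48.3 (87.1) and 23.5 (78.3), and was within 5 kb of 10 control and 7 PDS peaks. IGLV3-21 had 32.5 (66.0) and 32.8 (93.6) in peaks of 3120 and 3350 bp. IGLV2-14 reached 29.5 (90.2) under PDS, where the overlapping control peak had 18.4 (25.4). IGLV3-1, the segment nearest to the J segments, had 6 and 7 peaks. One of its control peaks stood at percentile 13.1 by fold and 99.98 by p-value, which shows how far the 2 measures parted in this locus. IGLV4-69, the farthest, had 1 control and 4 PDS peaks. IGLV10-54 had PDS peaks of at most 11.3 (19.2), the nearest at 183 bp, and its nearest control peak was 5103 bp away. IGLV2-18 was the only IGL segment without a near peak, with gaps of 6974 and 8023 bp.

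The dense stretch ran beyond the V segments. Of the 3113 windows of 1 Mb in the genome, chr22:22000001-23000000 and chr22:23000001-24000000 held the most peaks in both lists, with 137 and 132 control peaks and 153 and 160 PDS peaks. The next window, chr22:19000001-20000000, had 91 and 86. From the end of the V array to BCR, the gene that is fused to ABL1 in K562 cells, the lists had 131 and 161 peaks per Mb, and within BCR 116 and 137. In the 250 kb after BCR, the density was 24.0 in both lists. The median fold percentile was 3.09 and 1.65 in BCR and 74.6 and 84.9 in the 250 kb after it. On the far side of the array, low ranks went on well beyond it. In the 250-kb bins of chr22:19473577-22223576 that held peaks, the median fold percentile lay between 10.85 and 23.8 in control cells and between 5.61 and 28.4 under PDS. DNA copy number was not measured here, and its part in these values was not tested. IGL held 113 of the 164 near control peaks and 134 of the 185 near PDS peaks, so shares of near peaks are given below without it as well.

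**Figure D4:**
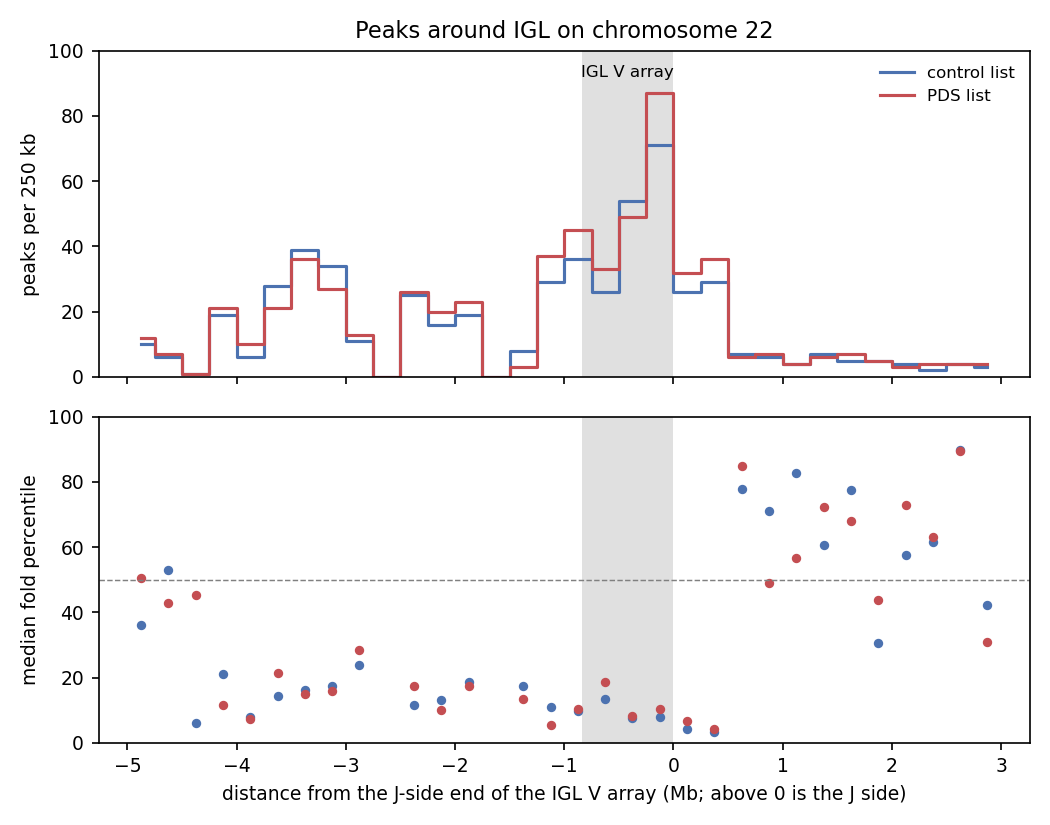
The upper panel plots peaks per 250 kb and the lower panel the median fold percentile of the same bins against the distance in Mb from the J-side end of the IGL V array, for both lists. Density is high and fold percentile low across the array and up to BCR, low fold percentiles also extend far to the left of the array, and both measures change after BCR, where the 250 kb after BCR have 24.0 peaks per Mb in each list.

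**Figure D5:**
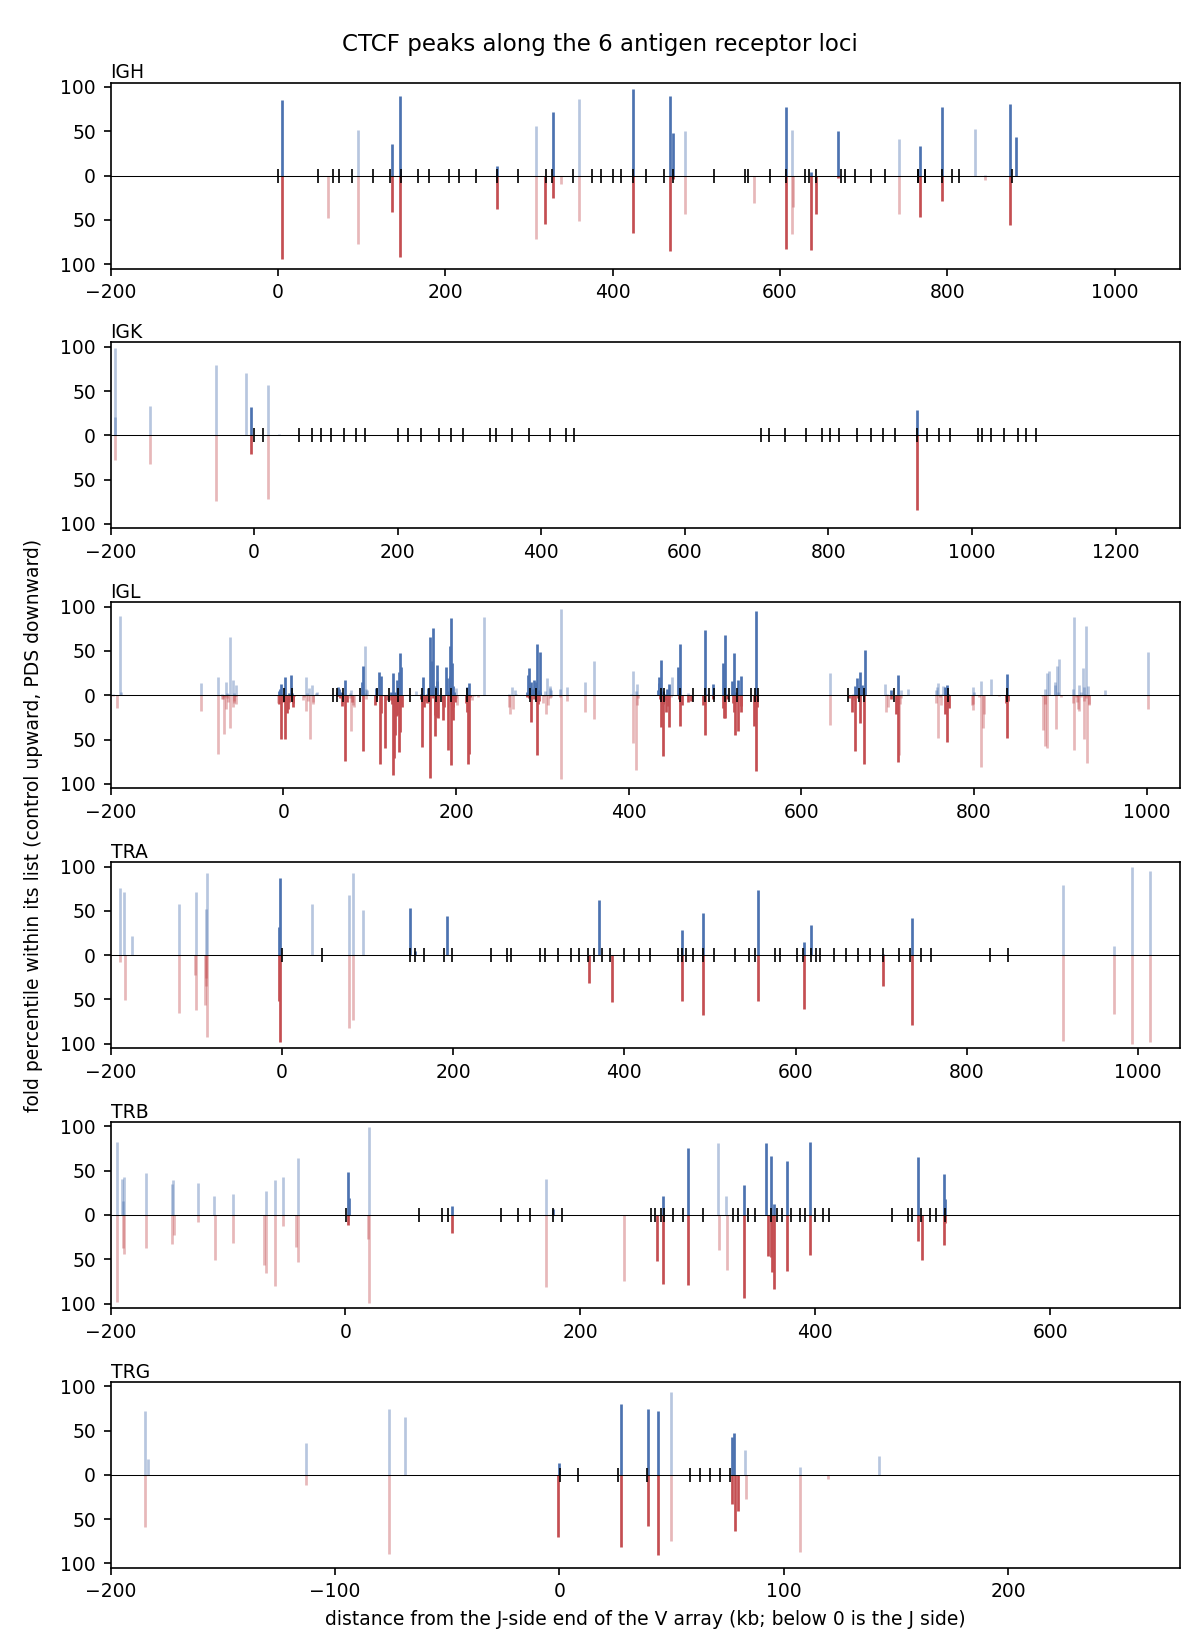
Each panel is a locus, drawn by distance in kb from the J-side end of its V array, with V segments as ticks and peaks as lines whose length is the fold percentile, control upward and PDS downward, dark for peaks within 5 kb of a segment and pale for the others. IGL is filled with short lines, IGK is nearly empty, and the J side of IGH has no line.

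CTCF words near V segments were mostly on the strand of the segment. The consensus tested was a CTCF core of 15 letters, searched on both strands. Within 5 kb of a V segment the genome held 106 such words, of which 96 (90.6%, 83.5 to 94.8) had the strand of the nearest segment. Among those in a control peak 34 of 35 did (97.1%, 85.5 to 99.5), among those in a PDS peak 29 of 31 (93.5%), and among those in no peak 62 of 69 (89.9%, 80.5 to 95). Near protein-coding genes, 47.6% of all 13282 words had the strand of the nearest gene. It was 50.6% of words in a control peak, 50.5% of those in a PDS peak and 46.3% of those in no peak. The loci varied: 51 of 51 words were on the strand of the segment in IGH, 5 of 5 in TRG, 10 of 11 in IGL, 12 of 14 in TRA, 7 of 9 in IGK and 11 of 15 in TRB (73.3%, 48.0 to 89.1). In TRB, 5 of the 8 words in no peak did (62.5%). The 4 opposite words of TRB lay 506 to 517 bp after the 3′ ends of TRBV5-7, TRBV5-6, TRBV5-5 and TRBV5-4, the segments whose printed words are on their own strand, and that of TRBV5-5 was in a PDS peak. Outside IGL, 86 of 94 words (91.5%) had the strand of the segment. Without the 3 runs of tandem repeat words in IGH near IGHV1-3, IGHV3-16 and IGHV4-39, it was 57 of 67 over all loci (85.1%), 28 of 29 in a control peak and 29 of 36 (80.6%) in no peak. The preference was thus present in the genome sequence with and without a peak, and the words are not independent, since the segments are copies and repeats hold many words.

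A peak covered 35 of the 106 words (33%) in control cells and 31 (29.2%) under PDS. Over the whole genome, 24.9% and 21.0% of such words lay in a peak. Without IGL the shares were 25 of 94 (26.6%) and 20 of 94 (21.3%), near those of the genome. IGL had all but 1 of its 11 words in a control peak, and IGH 13 of 51 (25.5%). These shares depended on tandem repeats in IGH. Of the 94 words, 39 stood in 3 runs of at least 5 words no more than 200 bp apart: 26 near IGHV1-3 and 7 near IGHV3-16, all without a peak, and 6 near IGHV4-39, all in a peak of both lists. With these runs left out, an alternative chosen after seeing the data, 19 of 55 words (34.5%) lay in a control peak and 14 of 55 (25.5%) in a PDS peak. The genome-wide shares keep such repeats.

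Conversely, the share of near peaks with a word was above that of the whole lists in the pooled 5 loci outside IGL and below it in IGL. In the 5 other loci, 19 of 51 control peaks (37.3%, 25.3 to 51) and 14 of 51 PDS peaks (27.5%, 17.1 to 41.0) held the consensus, against 17.3% and 14.4% of the whole lists. In IGL it was 10 of 113 (8.85%) and 11 of 134 (8.21%). The weight matrix matched 62.7% and 47.1% of the peaks of the 5 loci and 23.9% and 20.1% of those of IGL, against 47.3% and 39.3% of the whole lists. Of the near peaks with a match, 57 of 59 control peaks and 48 of 51 PDS peaks had it on the strand of the segment, and 31 of 32 and 23 of 24 outside IGL.

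PDS binds G4s, and G4 motifs (4 runs of 3 or more G separated by 1 to 7 nt, on either strand) were counted in the peaks. They were in 27 of 164 near control peaks (16.5%) and 28 of 185 near PDS peaks (15.1%), against 16.1% and 17.2% of the whole lists. In the 5 loci without IGL they were in 3 of 51 (5.88%, 2.02 to 15.9) and 5 of 51 (9.80%, 4.26 to 21.0). In IGL they were in 24 of 113 (21.2%) and 23 of 134 (17.2%). The intervals of the control and PDS lists overlapped in both cases. With loops of up to 12 nt the order of the lists turned, at 21.3% of all near control and 23.8% of all near PDS peaks, and in IGL at 27.4% and 28.4%.

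Sharing between the lists also split by locus. In the 5 loci, 42 of 51 near peaks (82.4%, 69.8 to 90.4) of each list overlapped a peak of the other, against 78.0% of all control and 78.6% of all PDS peaks. In IGL, 87 of 113 control peaks (77.0%) and 77 of 134 PDS peaks (57.5%, 49.0 to 65.5) did. The IGL shares depended on the overlap asked for. They were 38.1% and 32.1% for an overlap of at least 50% of both peaks and 28.3% and 23.9% for centres at most 100 bp apart, against 74.5% in both lists and 72.5% in both lists for the 5 loci. In IGH 14 of 15 control peaks and in TRG and IGK all 6 and 2 had a PDS counterpart, and in TRA 8 of 13. By fold percentile, 25 of the 42 overlapping pairs outside IGL ranked higher under PDS and 17 in control cells. By p-value the counts were 30 and 12. Over the 24616 such pairs of the whole lists, 51.4% ranked higher under PDS by fold and 56.3% by p-value. TRA had 7 of 8 pairs higher under PDS by fold and 5 of 8 by p-value.

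The other genes of the loci were described in the same way. Of the 31 D genes, 3 had a control peak within 5 kb (TRDD1, TRDD2 and TRBD1) and 1 a PDS peak (TRBD1). Of the 91 J genes, 11 had a peak in both lists: the 8 TRBJ2 genes, TRAJ61, TRAJ59 and TRAJ58. The 8 TRBJ2 genes lie side by side and share the same 1 control and 2 PDS peaks, and genome windows of V segment length held one in 10.4% and 9.41% of cases. Of the 14 C genes, TRAC had one in both lists. None of the IGH, IGK, IGL and TRG D, J and C genes had a peak, even in IGL, where nearly all V segments did. V pseudogenes were near a control and a PDS peak in 23 and 26 of 81 cases in IGH (28.4% and 32.1%), 27 and 28 of 36 in IGL (75% and 77.8%), 7 of 12 in TRB and 5 of 5 in TRG in each list, 1 and 0 of 33 in IGK and 0 of 9 in TRA. These shares were lower than those of the V segments in IGH, IGK, IGL and TRA and higher in TRB and TRG. In every locus the Wilson intervals of pseudogenes and V segments overlapped, and the differences were not tested.

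Of the 38 protein-coding genes in the extended loci, 26 had a control and 24 a PDS peak within 5 kb, 24 of them in both, beside the 62.7% and 59.3% of all protein-coding genes. Beside IGK, the peak chr2:88991041-88991520 at RPIA and EIF2AK3 had a control fold of 85.4 (98.4). In the PDS list, RPIA reached 14 (32.5) and EIF2AK3 20.5 (68.3). In IGL, PRAME, a tumour antigen gene that lies between V segments, had 73.2 (97) and 33.6 (94.3). GGTLC2, a gamma-glutamyltransferase light chain gene in the same array, had a control peak of 50.5 (88.7) and none in the PDS list. Around TRA, CHD8, a chromatin remodeller, had 64.2 (94.9) and 42.7 (98.1), and DAD1, a subunit of the oligosaccharyltransferase, 34.9 (70.9) and 19.8 (65.4). Beside TRG, STARD3NL, which encodes a late endosomal membrane protein, had 37.1 (74.7) and 28.9 (89.4).

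Genes of the V(D)J recombination and end-joining machinery were given as a list of 20. Of these, 11 had a control peak within 5 kb and 12 a PDS peak, 11 of them in both, to be read beside the 62.7% and 59.3% of all protein-coding genes. RAG1, the catalytic subunit of the recombinase, had 3 peaks in each list, with highest folds of 50.7 (88.8) and 17.6 (54.8). DNTT, which adds untemplated nucleotides at the joints, had weak peaks, at most 14.4 (15.6) and 13.8 (31.1). Among the end-joining genes, XRCC6 had 50.5 (88.6) and 46.9 (98.8), and NHEJ1 63.3 (94.6) and 33.4 (94.1). HMGB1, which assists RAG binding, had a peak in the PDS list only, with 13.0 (26.9). RAG2, LIG4 and XRCC4 had none in either list.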

How the data were processed

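The authors mapped reads to hg19 with Bowtie2 (version 2.2.3), removed duplicates, reads without a unique placement and reads with a mapping quality below 30, and called peaks with PePr on both CTCF replicates of a condition against IgG. The deposited lists give a fold ratio over IgG and a p-value per peak, the largest being 9.997e-06. A score and an adjusted p-value, also deposited by the authors, were not used. The V segments and gene lists were chosen with earlier results of these data known. Peaks were matched to GENCODE release 44 (GRCh37) with Python 3.11.15, numpy 2.4.6, pandas 2.3.3, numba 0.67.0 and pyfaidx 0.9.0.4, each assigned to its nearest segment, and an overlap of 1 bp counted as shared. The weight matrix came from 5007 consensus words in shared control peaks outside the loci, with its limit at the 99th percentile of the best score in 24598 windows of 200 bp, 3 kb from peaks. The code passed 7 of 7 checks on simulated data. Named were, per locus and list, the 2 segments with the highest folds, those nearest to and farthest from the J segments, those with a peak in 1 list (the 2 highest where there were more than 5), the strongest other peaks, and the listed genes. IGHV3-20, IGHV3-49, IGHV3-72, IGHV8-51-1, IGHV1-58, IGHV1-24, TRBV5-6, IGLV2-18, IGKV5-2, IGKV1-6, IGKV1-5 and the windows and regions of chromosome 22 were chosen after their values were seen. The alternatives are given in the closing section.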

Additional observations from a re-analysis of the deposited data

How the results depend on the processing

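No paired analysis was possible because each of the 2 lists used here merges both replicates of a condition. Signal per replicate was not analysed here, and no replicate was left out. Of 58 alternatives for results over all loci, 15 left the value within a set limit and 43 moved it beyond. The limit was the counting interval for shares and an interval of the median for medians. For numbers of peaks it was a fixed ratio to the reported number. As reported, over all loci, 78.7% of near control and 64.3% of near PDS peaks were shared, 17.7% and 13.5% held the consensus, and the median fold percentiles were 17.6 and 20.5. With windows of 0, 2 and 10 kb the control list had a peak near 12.1%, 24.6% and 52.7% of the V segments and the PDS list near 10.3%, 27.2% and 51.3%. With 2 kb the near peaks numbered 97 and 114. With only the better 50% of peaks by p-value kept, the lists had 56 and 85 near peaks at 19.2% and 26.8% of the segments, so that the PDS share was then the higher one, and 87.5% of the control but 57.6% of the PDS peaks were shared (57.1% of PDS peaks without IGL). Sharing was 49.4% of control and 43.8% of PDS peaks for an overlap of at least 50% of both peaks, 42.1% and 37.3% for centres at most 100 bp apart, and 93.9% and 87.6% for a gap of at most 1 kb. The weight matrix matched 36% and 27.6% of near peaks, and the consensus lay in the central 200 bp of 12.2% and 8.11%. G4 motifs were in 45.7% and 42.7% of peaks widened by 1 kb, and in 21.3% and 23.8% with loops of 1 to 12 nt, where the PDS share was the higher one. Ranked by p-value, the median percentiles were 36.4 and 46.1. Around segments with and without a peak, 99.7% and 98.2% of 100-base words were unique. IGL was left out as an alternative chosen after seeing the data. Without it, the segments near a peak were 29.7% and 28.1%, near peaks 51 and 51, other peaks 57 and 58, shared PDS peaks 82.4%, peaks with the consensus 37.3% and 27.5%, peaks with a G4 motif 5.88% and 9.80%, and median fold percentiles 46.8 and 52.2. The cause of these shifts was not tested. Depth is unknown, so that lack of a peak and a peak below detection cannot be told apart.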
